A study of Mus musculus with 6 samples.

Results

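Liver sinusoidal endothelial cells were followed through 10 marker genes: Stab1, Stab2, Fcgr2b, Clec4g, Lyve1, Kdr, Tek, Ptprb, Pecam1 and Oit3. The genes were taken by symbol, and all 10 were found among the 16375 genes of the table. They were measured by bulk RNA sequencing of whole mouse liver, in 3 libraries from mice given inosine by intraperitoneal injection and 3 from control mice. Inosine is the purine nucleoside formed when adenosine is deaminated, and the title of the series places it in work on liver RNA editing and the wasting of cancer cachexia. The sources used here do not give strain, sex, age, dose, timing, tumour status or what the control mice received. Nor do they tie each library to a separate mouse, so p-values reflect only the spread among these libraries, which may be technical.

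Sinusoidal endothelial cells line the capillaries of the liver. They are perforated by open pores, rest on little basement membrane and take up waste molecules from the blood through scavenger receptors and lectins. Growth factor receptors, above all those for VEGF and angiopoietins, maintain them, and they in turn supply signals to hepatocytes. In a whole liver these genes are read against a large excess of hepatocyte RNA, and fewer cells of a type cannot be told apart from less RNA per cell.

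The libraries held 16383896 to 17505035 estimated read counts, and the 10 genes had 18 to 1053 counts per library. All 10 passed the filter on low counts. Levels in each library are given as CPM, read counts made relative to library size after TMM scaling, and comparisons between genes as TPM, which is also scaled by transcript length. Control library 1 lay lowest of the controls on 8 of the 10 genes.

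None of the 10 genes passed the threshold over all genes (edgeR quasi-likelihood test, adjusted p under 0.05), where 0.00811% of the 12326 genes tested did. DESeq2 called none of the 10 either, against 1.92% of the genes it tested. Without inosine library 2, DESeq2 called Ptprb (adjusted p = 0.032) and 1.24% of the genes it tested, and without control library 1 it called Fcgr2b (adjusted p = 0.0034) and 4.68% of the genes. It called none of the 10 without inosine library 1, where 2.03% of genes passed, without inosine library 3 (1.35%) or without control library 2 or 3 (1.07% each). In the authors' deposited table none of the 10 had a q-value under 0.05, against 1.17% of the genes with a q-value. Before adjustment, 3 of the 10 had an edgeR p under 0.05, namely Fcgr2b, Ptprb and Tek, all lower in inosine, and 0 of the 10 were higher at that level. Over all genes tested, 7.26% were lower and 7.21% higher at that level. The log2 fold change of inosine over control was below 0 for 9 of the 10 and above 0 for Stab1, and 51.8% of all genes tested were below 0. The median was -0.37 over the 10 genes and -0.01 over all genes tested. Without inosine library 1 the median over the 10 was -0.16, and without inosine library 2 it was -0.56.

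To show what stands upstream of genes with differing patterns, 250 bases before the RefSeq start site (build GRCm38.p6) are given for 4 of them. Fcgr2b and Tek had inosine libraries all below the controls, Clec4g lay closest to the mean pattern of the 10, and Stab1 was the gene with a fold change above 0. Capitals mark AGGAAG or its reverse complement CTTCCT, a core bound by ETS factors, the family to which the endothelial regulators Erg and Ets1 belong. Each sequence is written 5′ to 3′ on the strand of the gene.
Fcgr2b, chr1:170976072-170976321, minus strand: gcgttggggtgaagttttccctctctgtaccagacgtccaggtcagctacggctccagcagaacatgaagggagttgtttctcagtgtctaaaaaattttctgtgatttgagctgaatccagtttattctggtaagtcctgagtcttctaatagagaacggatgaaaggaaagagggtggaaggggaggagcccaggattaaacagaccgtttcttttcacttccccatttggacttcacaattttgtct
Tek, chr4:94739039-94739288, plus strand: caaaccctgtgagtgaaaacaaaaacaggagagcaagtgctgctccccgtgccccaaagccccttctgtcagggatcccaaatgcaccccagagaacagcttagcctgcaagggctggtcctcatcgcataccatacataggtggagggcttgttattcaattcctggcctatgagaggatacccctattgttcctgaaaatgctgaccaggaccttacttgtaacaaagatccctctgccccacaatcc
Clec4g, chr8:3720652-3720901, minus strand: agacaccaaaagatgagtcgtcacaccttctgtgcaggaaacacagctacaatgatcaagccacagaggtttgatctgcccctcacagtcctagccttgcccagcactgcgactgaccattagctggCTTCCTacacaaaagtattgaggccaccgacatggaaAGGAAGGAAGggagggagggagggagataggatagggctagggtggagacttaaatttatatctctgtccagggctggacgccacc
Stab1, chr14:31168642-31168891, minus strand: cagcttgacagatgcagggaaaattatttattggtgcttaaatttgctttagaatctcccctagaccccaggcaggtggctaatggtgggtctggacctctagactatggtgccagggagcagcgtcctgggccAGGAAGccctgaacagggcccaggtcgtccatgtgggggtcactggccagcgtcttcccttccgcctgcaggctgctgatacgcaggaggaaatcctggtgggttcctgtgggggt

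Promoter sequences matched 6 of the 10 genes by gene ID: these 4, Kdr and Stab2. AGGAAG on either strand occurred in 3 of the 6, with 3 matches for Clec4g, of which 2 share letters, and 1 each for Stab1 and Stab2. Across all 32851 RefSeq promoters of the same length, 29.5% held it. The GATA core AGATAA, searched on both strands, was found in 0 of the 6 and in 9.99% of all promoters. A match describes letters in the window and is not a binding site.

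The 10 genes spanned a wide range of levels per length. Clec4g was the most abundant, at a mean of 43.8 TPM in inosine and 49.9 TPM in control libraries. Fcgr2b followed at 26.2 TPM in inosine and 35.0 TPM in control, and the Clec4g level exceeded that of Fcgr2b in all 6 libraries although their ranges overlapped. Stab2 averaged 11.9 and 13.0 TPM in inosine and control libraries and Oit3 averaged 7.99 and 10.3 TPM. Kdr, Stab1, Ptprb and Pecam1 lay close together, with means between 4.30 and 8.12 TPM in either group. Stab1 exceeded Ptprb in the 3 inosine libraries and lay below it in the 3 control libraries, so the order of these neighbours differed between the groups. Tek, at 2.02 TPM in inosine and 2.77 TPM in control, and Lyve1, at 1.57 and 1.64 TPM, were the lowest. The gaps between Fcgr2b and Stab2 and between Pecam1 and Tek were the ones where every library of the first gene lay above every library of the second.

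**Figure D1:**
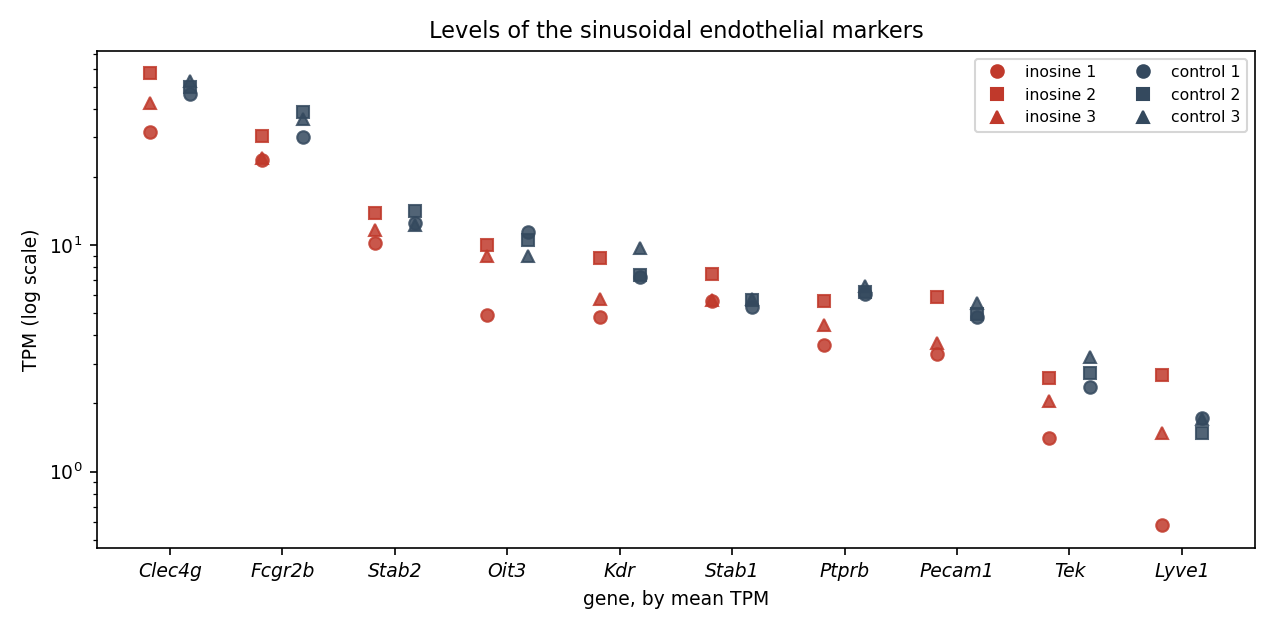
Level of each of the 10 genes in every library, in TPM on a log scale, ordered by mean level, with inosine libraries in red left of control libraries in dark blue. Clec4g lies between 31.8 and 57.4 TPM and Lyve1 between 0.58 and 2.66 TPM.

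The scavenger receptors came first by role. Stab1 and Stab2 encode stabilins, large receptors that clear waste such as oxidized lipoproteins and, for Stab2, hyaluronan. Stab1 (gene ID 192187, chromosome 14, 30860974 to 30890616, GRCm39) measured 32.9, 41.2 and 37.0 CPM in inosine libraries 1 to 3 and 32.0, 36.3 and 35.8 CPM in control libraries 1 to 3. The groups overlapped, and inosine library 2 was the highest of the 6. The log2 fold change was 0.09 (SE 0.10, adjusted p = 0.70 in edgeR), with a 95% interval of -0.14 to 0.33. Stab1 overlaps Nt5dc2 in the table's coordinates, and the sources used here do not say whether the counting used strand. Stab2 (gene ID 192188, chromosome 10, 86674958 to 86843902, GRCm39) measured 35.6, 47.3 and 45.5 CPM in inosine and 46.8, 55.9 and 48.1 CPM in control. Inosine library 1 was the lowest, while inosine library 2 lay above control library 1. Its log2 fold change was -0.23 (SE 0.12, 95% interval -0.52 to 0.06).

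Fcgr2b encodes the inhibitory Fc gamma receptor, which on sinusoidal endothelium takes up small immune complexes and is also carried by B cells and macrophages. Fcgr2b (gene ID 14130, chromosome 1, 170788127 to 170805315, GRCm39) measured 19.7, 23.6 and 22.4 CPM in inosine and 25.9, 34.9 and 31.5 CPM in control. Every inosine library lay below every control, with control library 1 the nearest. The log2 fold change was -0.49 (SE 0.13, adjusted p = 0.18 in edgeR), with an interval of -0.78 to -0.20. Among all genes tested, 9.79% had inosine libraries entirely below the controls, and 3 of the 10 did: Fcgr2b, Ptprb and Tek. On TPM inosine library 2 (30.4) exceeded control library 1 (30.1), so for Fcgr2b the separation depended on the scaling.

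The counts of Fcgr2b were not whole in 5 of 6 libraries, whereas those of the other 9 genes were whole in all 6. Summed with the counts of Fcgr3, its neighbour in the Fc receptor family, they were whole in every library, at 440, 491 and 413 counts in inosine and 483, 667 and 613 in control. A sum of this kind is what arises when reads are divided between these genes, so the split is uncertain. The sum measured 24.8, 28.1 and 25.8 CPM in inosine and 29.2, 40.0 and 35.8 CPM in control, again without overlap, with a fold change of -0.42 on the log2 scale (SE 0.12, adjusted p = 0.22 in edgeR). Fcgr3, an activating receptor of myeloid cells, measured 5.06, 4.53 and 3.36 CPM in inosine and 3.38, 5.14 and 4.24 CPM in control, a log2 fold change of 0.02 (SE 0.22). The ratio of Fcgr2b to Fcgr3 in TPM was 3.69, 4.95 and 6.33 in inosine and 7.23, 6.46 and 7.13 in control. As far as that split can be relied on, the groups did not overlap, by a narrow margin (6.33 against 6.46). The share of other gene pairs that separate likewise was not computed.

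Clec4g encodes the lectin LSECtin, which binds glycans, and Lyve1 a receptor for hyaluronan shared with lymphatic vessels. Clec4g (gene ID 75863, chromosome 8, 3757066 to 3770695, GRCm39) measured 22.1, 37.5 and 32.7 CPM in inosine and 33.6, 38.1 and 39.0 CPM in control. Inosine library 1 stood well below the rest and inosine library 2 lay within the control range. Its log2 fold change was -0.26 (SE 0.18, 95% interval -0.67 to 0.15). Lyve1 (gene ID 114332, chromosome 7, 110449814 to 110462160, GRCm39) had 18, 76 and 46 counts in inosine and 51, 47 and 54 in control. It was lowest in inosine library 1 and highest in inosine library 2, and the controls lay between them. Its log2 fold change of -0.14 (SE 0.43) had the widest interval of the 10, from -1.14 to 0.86, and its sign turned to 0.26 without inosine library 1. The lymphatic markers Pdpn, Ccl21a and Mmrn1 together had 0.69 to 1.91 CPM in inosine and 0.47 to 1.62 CPM in control. Lyve1 itself measured 1.01 to 4.35 CPM in inosine and 2.82 to 3.15 CPM in control, and neither is scaled by transcript length. In inosine library 1 the lymphatic sum (1.91) was above Lyve1 (1.01), and in the other libraries it was below. The part of lymphatic vessels in Lyve1 was not tested.

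Kdr, Tek and Ptprb belong to the receptor system that maintains vessels. Kdr encodes VEGFR2, the main signalling receptor for VEGF. Kdr (gene ID 16542, chromosome 5, 76093487 to 76139885, GRCm39) measured 20.5, 35.3 and 27.5 CPM in inosine and 31.9, 34.4 and 43.7 CPM in control. Inosine libraries 1 and 3 lay below all controls and inosine library 2 within them. Kdr had a log2 fold change of -0.40 (SE 0.20, 95% interval -0.86 to 0.06).

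Tek encodes Tie2, the receptor for angiopoietins. Tek (gene ID 21687, chromosome 4, 94627322 to 94763213, GRCm39) measured 4.56, 7.90 and 7.55 CPM in inosine and 8.11, 9.91 and 11.3 CPM in control. The inosine libraries lay below the controls, with inosine library 2 just below control library 1. The order of those 2 libraries turned when CPM was scaled by total counts alone and in TPM. The log2 fold change was -0.55 (SE 0.22, adjusted p = 0.32 in edgeR), the lowest of the 10, with an interval of -1.07 to -0.04.

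Ptprb encodes VE-PTP, a phosphatase that removes phosphate from Tie2 and so damps its signal. Ptprb (gene ID 19263, chromosome 10, 116111407 to 116225443, GRCm39) measured 31.6, 47.0 and 43.5 CPM in inosine and 55.4, 59.0 and 61.4 CPM in control. All inosine libraries lay below all controls, and Ptprb was the gene of the 10 for which this held on TMM-scaled CPM, on CPM by total counts and on TPM. The log2 fold change of Ptprb was -0.53 (SE 0.14, adjusted p = 0.19 in edgeR), with an interval of -0.85 to -0.20. The ratio of Tek to Ptprb in TPM was 0.39, 0.46 and 0.46 in inosine and 0.39, 0.44 and 0.49 in control, and the groups overlapped.

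Pecam1 encodes CD31, an adhesion molecule of endothelial junctions that platelets and leukocytes also carry. Pecam1 (gene ID 18613, chromosome 11, 106545039 to 106606107, GRCm39) measured 7.26, 12.5 and 8.98 CPM in inosine and 11.0, 12.3 and 12.9 CPM in control. Inosine libraries 1 and 3 were below every control and inosine library 2 was not, and the log2 fold change was -0.33 (SE 0.19, 95% interval -0.78 to 0.12). Oit3 encodes a protein with a zona pellucida domain and is used as a marker of these cells. Oit3 (gene ID 18302, chromosome 10, 59258782 to 59277601, GRCm39) measured 8.95, 17.3 and 18.2 CPM in inosine and 21.4, 21.0 and 17.3 CPM in control. Inosine library 1 was far below the others, which overlapped, and the log2 fold change was -0.43 (SE 0.25, 95% interval -0.99 to 0.14).

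**Figure D2:**
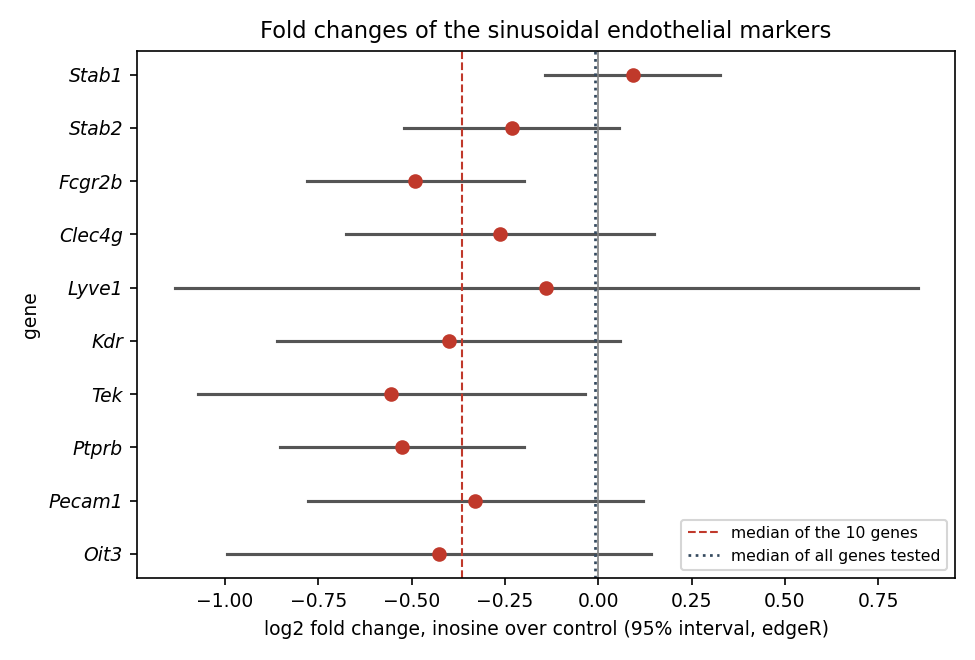
Log2 fold change of inosine over control for each gene (red point) with its 95% interval from edgeR (line); the dashed red line is the median of the 10 genes (-0.37) and the dotted dark line that of all genes tested (-0.01). The intervals of Fcgr2b, Tek and Ptprb lie below 0 before any adjustment, and that of Stab1 reaches from -0.14 to 0.33.

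On most of these genes the inosine libraries were spread further apart than the controls, mainly through inosine library 1. Relative to the control mean, the median of the 10 genes was -0.78, -0.06 and -0.26 (log2) in inosine libraries 1 to 3, against -0.12, 0.04 and 0.07 in control libraries 1 to 3. Inosine library 1 was the lowest of all 6 for 9 of the 10 genes, where 14.3% of all genes tested were lowest in it. It lay below every control for 9 of the 10 genes, inosine library 2 for 4 and inosine library 3 for 7. The shares over all genes were 26.9%, 27.6% and 29.2% in the same order. The range over the inosine libraries was wider than that over the controls for 9 of the 10 genes, all but Fcgr2b, against 46.1% of all genes tested. For Oit3 the inosine range was 1.02 and the control range 0.31 (log2). Relative to the control mean, Oit3 was at -1.15 in inosine library 1 and at -0.20 and -0.12 in inosine libraries 2 and 3. Inosine libraries 2 and 3 also lay apart for Lyve1, at 0.53 and -0.07, and for Pecam1, at 0.06 and -0.42. These counts of libraries were chosen after the values were seen.

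**Figure D3:**
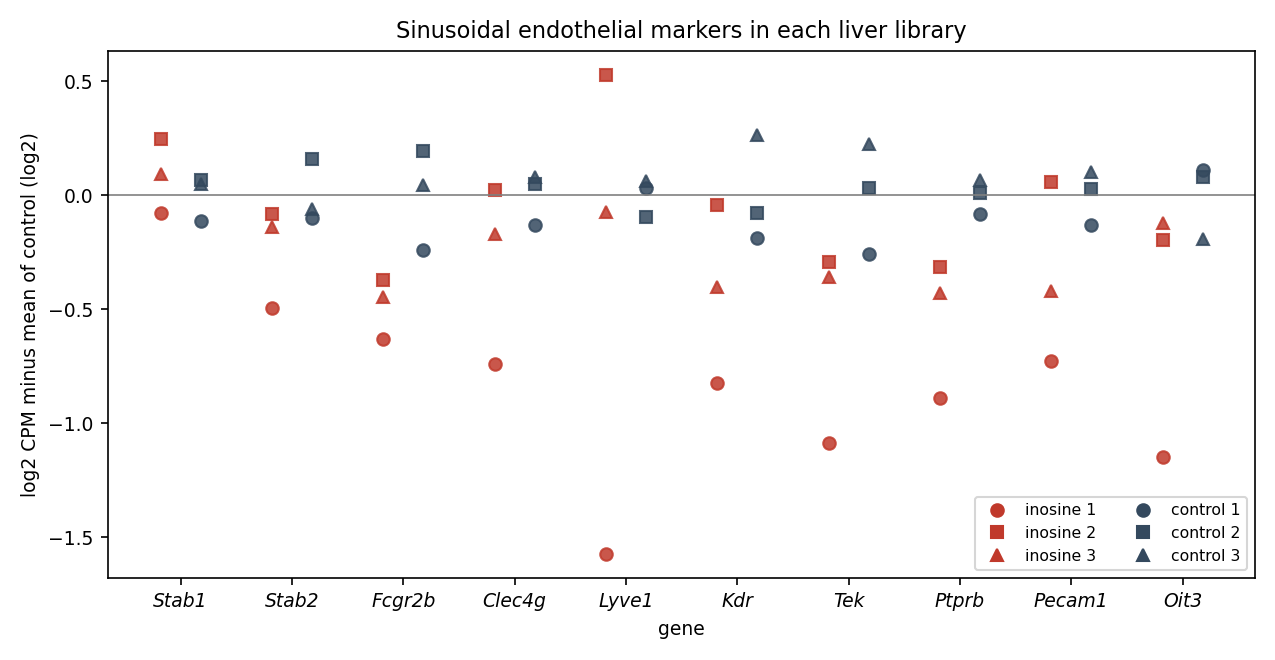
Log2 CPM of each gene in every library minus the mean of the control libraries, with inosine libraries in red left of control libraries in dark blue. Inosine library 1 (red circle) is the lowest point for 9 of the 10 genes, down to -1.57 for Lyve1, and Stab1 is the exception.

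Stab1, the gene with a fold change above 0, was also set against each of the other 9 within libraries, a comparison chosen because of that fold change and given as a description. The ratio of Stab1 to Ptprb in TPM was 1.56, 1.31 and 1.28 in inosine and 0.87, 0.92 and 0.88 in control. Its ratio to Stab2 was 0.55, 0.54 and 0.49 in inosine and 0.42, 0.40 and 0.47 in control. Of the 9 ratios, 7 lay higher in inosine without overlap, and those to Lyve1 and Oit3 overlapped. The ratio to Lyve1 was 9.74, 2.81 and 3.85 in inosine and 3.09, 3.86 and 3.39 in control, and the ratio to Oit3 was 1.15, 0.74 and 0.63 in inosine and 0.47, 0.54 and 0.64 in control. The ratio of Stab1 to a gene outside the 10 was higher in inosine without overlap for 12.3% of 12296 genes. A fit across all genes with the libraries scaled to the other 9 genes gave Stab1 a value of 0.53 on the log2 scale (SE 0.31, adjusted p = 0.32 in edgeR), so the difference did not pass. Without inosine library 1 the fit gave 0.35. Relative to the median of the 10 genes in each library, Stab1 was at 0.70, 0.31 and 0.35 in inosine and at 0.00, 0.02 and -0.02 in control (log2). Lyve1 was farther from that median than Stab1 in inosine libraries 1 and 2, at -0.80 and 0.59. In inosine library 2 Fcgr2b, at -0.31, was also slightly farther. The groups also separated for Clec4g, higher in inosine by 0.07, and for Ptprb, with a difference of -0.18, against 0.45 for Stab1. Each gene counts toward the median it is set against. The share of all genes that would separate on this measure was not computed, so these separations are description only. The remaining genes overlapped on this measure.

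**Figure D4:**
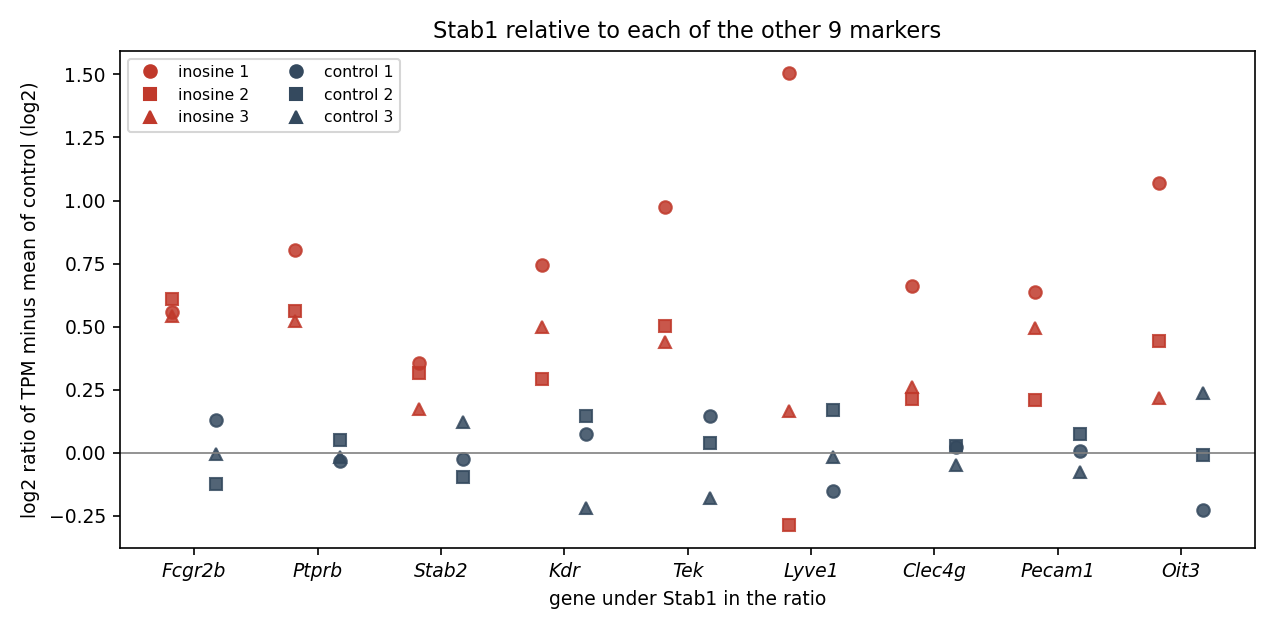
Log2 ratio of the TPM of Stab1 to that of each of the other 9 genes in every library, minus the mean over the control libraries, with inosine libraries in red left of control libraries in dark blue. For 7 of the 9 genes all inosine points lie above all control points, and for Lyve1 and Oit3 they overlap.

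Other endothelial genes had fold changes of the same sign as most of the 10. The lists held 18 further genes of sinusoidal endothelium and 14 genes shared by endothelia, all 32 tested and all different from the 10. Of the 32, 30 had a log2 fold change below 0 and 22 were lowest in inosine library 1, and 0 passed edgeR over all genes, with 8 at an unadjusted p under 0.05, all lower. The inosine libraries lay entirely below the controls for 10 of the 32. Over all genes tested, 51.8% were below 0, 14.3% were lowest in inosine library 1 and 7.26% were lower at that unadjusted p. Of all genes tested, 9.79% had inosine libraries entirely below the controls. The median log2 fold change was -0.40 over the sinusoidal list and -0.39 over the shared list. Mrc1, the mannose receptor and another endocytic receptor of these cells and of macrophages, had the smallest p. It measured 27.0, 28.8 and 30.1 CPM in inosine and 37.5, 44.1 and 42.1 CPM in control, groups that did not overlap, with a fold change of -0.53 on the log2 scale (SE 0.09, adjusted p = 0.083 in edgeR). F8, coagulation factor VIII, which sinusoidal endothelium secretes, measured -0.57 (SE 0.17). In the shared list Clec14a, an endothelial lectin-like membrane protein, measured -0.73 (SE 0.16, adjusted p = 0.14 in edgeR) and the VEGF receptor gene Flt1 -0.60 (SE 0.18). The genes above 0 were Egfl7, a secreted endothelial factor (0.20, SE 0.15), and Rspo3, a Wnt-enhancing factor of central veins (0.00, SE 0.23), named after their values were seen.

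The lists of the pathways around the receptors were less even in sign. The lists shared members, with 14 genes in more than 1 of them, so their counts are not independent. Flt1, Flt4, Tie1, Mrc1, Gata4, Maf, Wnt2, Wnt9b, Rspo3, Bmp2 and Kit were already among the 32 endothelial genes. No gene in any of them passed edgeR over all genes. Of 8 tested genes for VEGF ligands and receptors, 5 were below 0 and 3 above, with a median of -0.09. Nrp1, a VEGF co-receptor, measured 102, 124 and 96.4 CPM in inosine and 68.9, 88.2 and 87.2 CPM in control, a log2 difference of 0.40 (SE 0.13, adjusted p = 0.26 in edgeR), opposite in sign to Kdr and Flt1. The 3 tested genes of the angiopoietin and Tie list were all below 0. Tie1, the companion receptor of Tie2, measured -0.23 (SE 0.17) and Angpt1, a ligand of Tie2, -0.33 (SE 0.30). Of 12 scavenger and endocytic receptors 7 were below 0 and 5 above, with a median of -0.05. Scarb1, the HDL receptor that hepatocytes also express, measured 0.35 (SE 0.10, adjusted p = 0.20 in edgeR). Of 5 Fc receptor genes 3 were below 0, with Fcgr4 at -0.47 (SE 0.24) and Fcgrt, the neonatal Fc receptor, at 0.15 (SE 0.08).

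Among 17 endothelial transcription factors 11 were below 0 and 6 above (median -0.18). The members of smallest p, Ets2 (0.36, SE 0.11) and Hhex (0.36, SE 0.12), were above 0, and hepatocytes also express Hhex. The angiocrine and zonation list held genes for signals from endothelium to hepatocytes, such as Wnt2, and others such as the receptor gene Kit. Of its 14 tested genes 11 were below 0 (median -0.20). Wnt2, a Wnt ligand of central sinusoids, measured 0.73, 1.20 and 1.37 CPM in inosine and 1.94, 1.80 and 2.33 CPM in control, without overlap, with a fold change of -0.88 on the log2 scale (SE 0.28, adjusted p = 0.24 in edgeR). The stem cell factor receptor gene Kit measured -0.75 (SE 0.35), with control library 2 at 5.58 CPM and the other controls at 2.72 and 2.39 CPM. Of 8 tested genes of large-vessel and capillary endothelium 7 were below 0 (median -0.32). Plvap, which forms the diaphragms of capillary pores, measured -0.38 (SE 0.15) and the ephrin receptor gene Ephb4 -0.29 (SE 0.14).

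Genes with the most similar pattern were sought over the 6 libraries among 9250 others with a mean of at least 5 CPM. The measure was the root mean square difference between a gene's log2 CPM, centred on its own mean, and the mean of the 10 genes centred likewise. The 6 nearest were C1qtnf1 (0.07), Plxnc1 (0.07), Bmp5 (0.08), Ets1 (0.08), Eng (0.09) and Ltbp4 (0.09). Of these, Plxnc1, Ets1, Eng and Ltbp4 were already in the lists of endothelial and pathway genes. Eng, the TGF-beta co-receptor endoglin, measured 36.9 ± 8.6 CPM in inosine and 51.1 ± 1.1 CPM in control (SD, n = 3). Within the 10, Clec4g lay nearest to their mean (0.04) and Lyve1 farthest (0.40), followed by Stab1 (0.27).

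Markers of other cell types were read beside these values, and their part in the result was not tested. The 16 markers of stellate cells and fibroblasts were all below 0, with a median of -0.38 and Pdgfrb at -0.66 (SE 0.20), and none passed. By library their medians were -0.52, 0.04 and -0.57 in inosine and -0.11, 0.17 and -0.10 in control. Their summed level was 332, 517 and 347 CPM in inosine and 473, 521 and 467 CPM in control, so inosine libraries 1 and 3 were both low, library 3 lowest by median and library 1 by sum. Of 12 markers of Kupffer cells and macrophages 11 were below 0 (median -0.22), with sums of 343 to 389 CPM in inosine and 352 to 498 CPM in control. For these, inosine library 1 was the highest of the inosine libraries in sum and in median (-0.15, against -0.28 and -0.20 in inosine libraries 2 and 3). Their gene of smallest p, Adgre1, measured -0.41 (SE 0.15).

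Of 11 hepatocyte markers 9 were above 0 (median 0.14), with sums of 139514 to 155185 CPM in inosine and 114426 to 148700 CPM in control. Hnf4a, the transcription factor of hepatocyte identity, measured 735, 710 and 794 CPM in inosine and 541, 489 and 495 CPM in control, with a fold change of 0.55 on the log2 scale (SE 0.10, adjusted p = 0.087 in edgeR). All 5 erythroid genes were below 0 (median -0.89), with sums of 305 to 505 CPM in inosine and 645 to 851 CPM in control. Hba-a2 measured -1.23 (SE 0.18, adjusted p = 0.083 in edgeR), and it shares near-identical sequence with Hba-a1. In contrast to the endothelial lists, inosine library 1 had the highest erythroid sum of the inosine libraries. For blood cells, some of which carry Pecam1 or Fcgr2b, the summed levels reached 2.93 CPM in inosine and 3.48 CPM in control for 4 B cell genes, and 1.58 and 2.45 CPM for 5 T and NK cell genes. They reached 6.19 and 7.38 CPM for 4 neutrophil genes and 5.18 and 6.18 CPM for 4 platelet genes. These sums cover several genes and are not scaled by transcript length, so they give no level to set against Pecam1. In TPM the neutrophil gene S100a8 lay above Pecam1 in some libraries of each group and below it in others. Cd79b, Cd3g, Csf3r and Ppbp, the genes of smallest p in these lists, measured -0.48 (SE 0.30), -0.97 (SE 0.74), -0.49 (SE 0.36) and -0.36 (SE 0.57). The intervals of all of them included 0. Cd3g was the 1 gene tested of its 5, and in inosine library 3 it was at 0.06 CPM, where 3 counts equal 0.178 CPM. Of 5 cholangiocyte genes 3 were below 0 and 2 above (median -0.13). Their sums of 38.1 to 55.9 CPM in inosine and 29.7 to 37.4 CPM in control were mostly Spp1, which averaged 42.5 and 28.5 CPM and measured 0.58 (SE 0.16, adjusted p = 0.20 in edgeR). No measured gene of these lists was at 0 in all libraries.

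**Figure D5:**
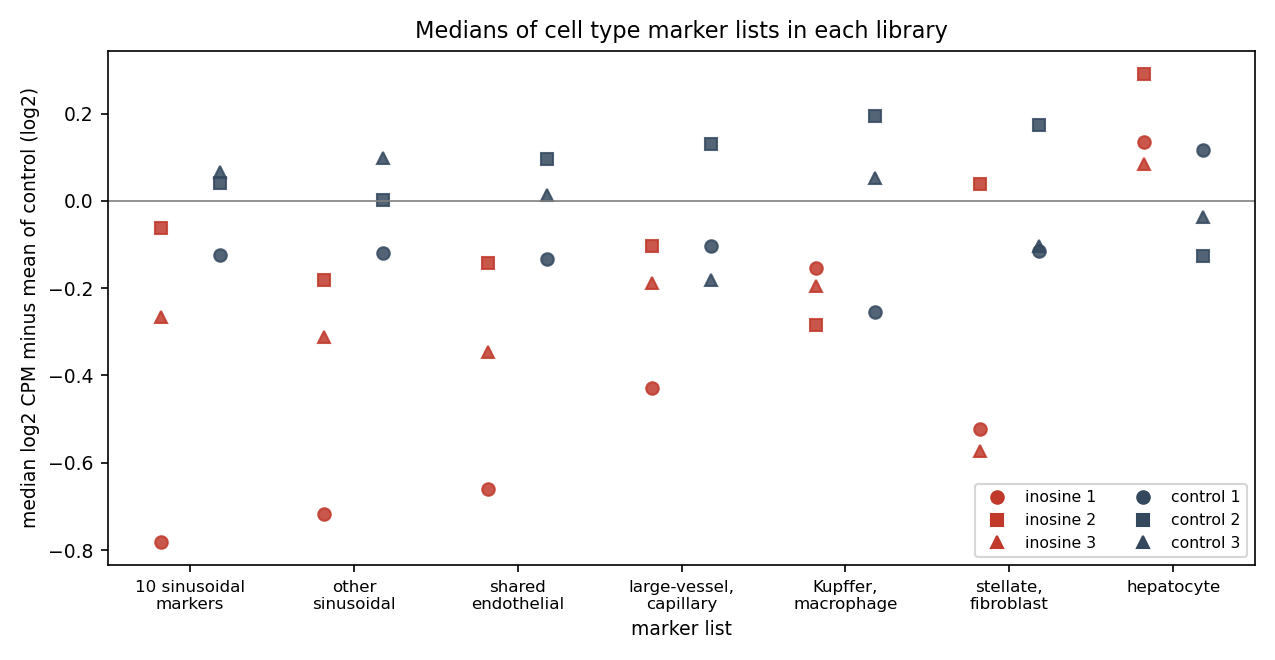
Median over each marker list of log2 CPM minus the control mean, per library, with inosine libraries in red left of control libraries in dark blue. Inosine library 1 is lowest for the 10 sinusoidal markers (-0.78), the other sinusoidal genes (-0.72) and the shared endothelial genes (-0.66), and for stellate markers inosine library 3 is lowest (-0.57).

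In the gene ontology columns of the table, 9 of the 10 genes were annotated as integral membrane components, against 26.8% of all genes, and Oit3 was not. Hyaluronic acid binding, a term held by 0.104% of genes, was shared by Stab1, Stab2 and Lyve1. These had log2 fold changes of 0.09, -0.23 and -0.14. The receptor complex term, held by 1.18% of genes, was shared by Ptprb, Kdr and Tek, which had -0.53, -0.40 and -0.55. Grouping the values by these terms was chosen after they were seen.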

How the data were processed

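Whole-liver RNA of 6 libraries, 3 per group, was sequenced after Trizol extraction, per the labels' protocols. The authors deposited estimated counts, TPM and FPKM per gene and library. The submitters' processing notes name Bowtie2, RSEM and the build GRCm39, with no tool version. Deposited beside these by the authors were a log2 fold change, p-values and q-values from DESeq2, per the file headers; in the authors' deposited table Ptprb had the lowest q-value of the 10 genes, 0.0795, at a log2 fold change of -0.52. FPKM served only to derive effective lengths. Between 89.8% and 90.3% of counts were whole. Counts were rounded for the count-based fits, and CPM were computed from the unrounded counts. The table's strand column differed from RefSeq for 1469 of 12893 genes, Fcgr2b and Stab2 among them, and was not used. All 18 per-sample columns matched a library title, and 1 empty line was left out.

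edgeR 4.0.16 (TMM, default filter built on a count of 10, group as the only term) was fitted on all 6 libraries in R 4.3.3, with Benjamini-Hochberg adjustment over the 12326 genes tested. SE is the size of the fold change over the square root of F, and 95% intervals use the fit's degrees of freedom. On simulated libraries of this comparison (12213 genes), edgeR recovered 16 of 100 genes changed 1.5-fold and 65 of 99 changed 2-fold, with 5 calls among 12014 unchanged genes. The floor of 3 counts equals 0.171 to 0.183 CPM and covers counting error only. DESeq2 1.42.0 and limma 3.58.1 were alternatives. The 10 genes and the 19 lists beside them were chosen with earlier results of these data known, so no list was tested as a set. Named from the lists were genes past the threshold or, with none, the 2 of smallest p in endothelial and pathway lists and the 1 of smallest p in lists of other cells.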

Additional observations from a re-analysis of the deposited data

How the results depend on the processing

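No gene of the 10 passed the threshold under any of the edgeR or limma settings or in DESeq2 with all libraries. In DESeq2 without 1 library, a setting added after the data were seen, between 0 and 1 of the 10 passed: Ptprb without inosine replicate 2 (adjusted p = 0.032), where 1.24% of all genes tested passed, and Fcgr2b without control replicate 1 (adjusted p = 0.0034), where 4.68% did. With those omissions in DESeq2 left aside, the adjusted p over all settings ran from 0.053 to 0.43 for Ptprb and from 0.058 to 0.43 for Fcgr2b. The sign of the fold change was kept in all alternatives for 9 of the 10 genes and turned for Lyve1 without inosine replicate 1 (0.26), where the omissions ranged from -0.65 to 0.26. The median over the 10 genes ran from -0.56 to -0.16 when 1 library was left out. Relative to the other 9 genes, Stab1 ran from 0.35 to 0.62 over the same omissions. The count over all genes was 1 in edgeR, against 223 with DESeq2, 6 with limma-voom, 7 with upper-quartile scaling, 9 with no filter, 8 with a mean of at least 5 CPM, 0 with limma on log2(TPM + 1) or log2(TPM + 0.1), and 0 to 56 without 1 library, with the 56 without control replicate 1; the cause was not tested. Same-numbered libraries did not deviate together (correlations -0.04, -0.03 and -0.02, and no library correlated best with its own number). With the replicate number as a block 0 genes passed in edgeR and the median over the 10 genes was -0.39. Lyve1 had the fewest counts of the 10, with 18 to 76 per library.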
